A study of Arabidopsis thaliana with 12 samples.

Results

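Unstressed seedlings of the Arabidopsis thaliana mutant ahl10-1 were compared with unstressed Col-0 wild type (WT) seedlings by RNA sequencing. The comparison uses the libraries labelled ahl10-1 control and WT control, 3 of each, which are 6 of the 12 libraries of the series. ahl10-1 carries the T-DNA insertion Salk_073165 in the AHL10 gene in the Col-0 background, and it is a single insertion line. All seedlings grew on MS agar buffered with MES and without sugar, in continuous light. On day 7 the control seedlings of both genotypes were moved to fresh plates of the same medium at -0.25 MPa, and whole seedlings were collected 96 h later, on day 11. The other 6 libraries, WT stress and ahl10-1 stress, came from seedlings of both genotypes moved to agar infused with PEG-8000 at -0.7 MPa. They are used here, together with the control libraries, to estimate the spread between replicates, and as a second pair of genotype groups. The 3 libraries of a group came from independent biological experiments, per the series' design text.

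AT-hook motif nuclear localized (AHL) proteins bind the minor groove of A/T-rich DNA through a short peptide, the AT-hook, and form complexes with each other and with other nuclear proteins through a second conserved domain. Members of the family restrain hypocotyl and petiole growth, affect flowering time and, in the case of AHL16, act in the silencing of transposons. AHL10 is known as a substrate of the phosphatase HAI1 and as a factor that restrains growth at low water potential. The control comparison asks which transcripts differ between the genotypes before any such stress.

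Reads in genes ranged from 60691369 to 66906434 in the 6 control libraries. On the first principal component of the 6 libraries, which held 31.4% of the variance, ahl10-1 control replicate 1 was at 21.8, between WT control replicates 3 (18.4) and 1 (31.9). ahl10-1 control replicates 2 and 3 lay at -37.7 and -25.8, and WT control replicate 2 was at -8.57. On the second component (23.2% of the variance) WT control replicate 3 lay at -39.6, WT control replicates 1 and 2 at 22.9 and -11.4, and the ahl10-1 libraries at 11.3, -6.90 and 23.6. Neither component separated the genotypes. Because leaving out ahl10-1 control replicate 1 moved the number of calls furthest, counts are also given without it. In that fit 22781 genes were tested, 12 of them (0.0527%) were called, and 14.4% had an unadjusted p under 0.05, 8.58% higher and 5.86% lower in ahl10-1. Leaf markers (RBCS1A, LHCB1.1, LHCB2.1, RCA, GAPB) had at least 73364 reads in every control library and all 11 root markers were detected in every one, as the label whole seedlings implies. The summed RPKM (reads scaled by gene length and library size) of 3 shoot meristem markers was 4.22 to 6.27 in WT, 10.8 in ahl10-1 control replicate 1, and 1.56 and 1.2 in the other ahl10-1 libraries. Nearly all of it was STM, because CLV3 and WUS had at most 4 and 8 reads. In whole seedlings, fewer cells of a type and less RNA per cell cannot be told apart.

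Of 22604 genes tested with edgeR's quasi-likelihood test, 4 passed an adjusted p of 0.05 in control, which is 0.0177% of them. The pseudogenes AT5G35935 and AT3G29120 were higher in ahl10-1, and AHL10 itself and the long non-coding RNA AT2G05914 were lower. AHL10 was the only protein-coding gene of the 4. The median size of the log2 fold change over all tested genes was 0.09, and 1208 genes, 5.34%, had an unadjusted p under 0.05. In 1734 genes, 7.67%, the 3 ahl10-1 and the 3 WT control libraries did not overlap.

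The 250 bases before the annotated start of each of these 4 genes are shown because AHL proteins bind A/T-rich DNA. They were read from RefSeq's TAIR10.1 assembly, 5′ to 3′ on the strand of the gene, and capitals mark the longest unbroken run of A and T, the first of 2 equally long runs for AT5G35935 and AT3G29120. The authors' build is TAIR10, per the submitters' processing notes.
AHL10, chr2:14233776-14234025, plus strand: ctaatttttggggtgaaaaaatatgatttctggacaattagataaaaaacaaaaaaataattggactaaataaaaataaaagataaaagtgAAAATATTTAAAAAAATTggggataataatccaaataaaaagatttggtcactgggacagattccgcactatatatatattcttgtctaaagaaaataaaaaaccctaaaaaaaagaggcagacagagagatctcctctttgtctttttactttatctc
AT5G35935, chr5:14089892-14090141, minus strand: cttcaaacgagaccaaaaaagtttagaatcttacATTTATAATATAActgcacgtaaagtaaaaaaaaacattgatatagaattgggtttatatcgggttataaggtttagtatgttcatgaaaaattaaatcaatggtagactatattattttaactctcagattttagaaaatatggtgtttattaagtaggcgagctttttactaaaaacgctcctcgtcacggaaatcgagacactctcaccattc
AT3G29120, chr3:11098255-11098504, plus strand: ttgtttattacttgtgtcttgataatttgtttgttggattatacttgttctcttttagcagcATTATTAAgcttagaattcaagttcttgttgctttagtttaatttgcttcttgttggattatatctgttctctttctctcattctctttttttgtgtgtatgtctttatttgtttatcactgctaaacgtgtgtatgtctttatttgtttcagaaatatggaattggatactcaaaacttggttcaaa
AT2G05914, chr2:2264544-2264793, minus strand: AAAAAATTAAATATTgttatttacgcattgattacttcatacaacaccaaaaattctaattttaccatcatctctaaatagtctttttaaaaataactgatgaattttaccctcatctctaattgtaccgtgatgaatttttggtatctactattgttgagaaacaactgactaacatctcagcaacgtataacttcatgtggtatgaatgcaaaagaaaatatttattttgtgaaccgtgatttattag
A and T made up 74% of the AHL10 window, 70% of the AT5G35935 window, 71.2% of the AT3G29120 window and 72.8% of the AT2G05914 window. The median over 37897 such windows of all genes on the 5 chromosomes was 68.0%. The longest A/T run was 18 bases before AHL10, and 16.1% of all windows held a run at least as long. It was 13, 8 and 15 bases before AT5G35935, AT3G29120 and AT2G05914, against a median of 12. Between 16.1% and 38.4% of all windows had an A/T content at least as high as these 4, and no binding was measured here.

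AHL10 (AT2G33620, chr2:14234026-14236883, plus strand, TAIR10.1) was at 46.3, 46.8 and 46.1 CPM (read counts scaled to library size, with TMM factors) in the WT control libraries. In ahl10-1 control it was at 25.7, 22.3 and 21.3 CPM. The groups did not overlap, the WT libraries lay within 1 CPM of each other, and the mutant kept 49.8% of the WT mean. The log2 fold change was -1.01 (SE 0.08), with an adjusted p of 2.29e-04 in edgeR's quasi-likelihood test. Leaving out ahl10-1 control replicate 1, which had the highest AHL10 level of the 3 mutant libraries, gave -1.09. A gene total does not show on which side of the insertion the remaining reads lie. In the annotation the ends of AHL10 overlap AT2G33630 and the non-coding gene AT2G08595, and whether counting used strand is not given in the sources used here. AT2G33630, on the opposite strand, was at 53.4 ± 3.84 CPM in WT and 51.6 ± 2.03 CPM in ahl10-1 (SD, n = 3).

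AT5G35935 (chr5:14083388-14089891, minus strand) is annotated as a pseudogene of an uncharacterized protein. It was at 3.94, 2.61 and 4.08 CPM in WT control and at 32.9, 28.8 and 27.6 CPM in ahl10-1 control. Every mutant library was several times above every WT library. The log2 fold change was 3.07 (SE 0.18), with an adjusted p of 4.12e-05 in edgeR's test, the smallest of all genes. None of its reads were multi-mapped.

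AT3G29120 (chr3:11098505-11099198, plus strand) is also a pseudogene of an uncharacterized protein. It was at 0.930, 1.11 and 0.705 CPM in WT control and at 5.15, 4.67 and 4.82 CPM in ahl10-1 control, again with no overlap. The log2 fold change was 2.41 (SE 0.18), with an adjusted p of 2.13e-04 in edgeR's test. Multi-mapped reads made up 10.7% of its control reads.

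AT2G05914 (chr2:2263124-2264543, minus strand) is a non-coding RNA annotated as a natural antisense transcript of AT2G05915. It was at 5.26, 3.31 and 4.05 CPM in WT control and at 0.774, 1.33 and 0.837 CPM in ahl10-1 control. The groups did not overlap, but the levels were low. The log2 fold change was -2.1 (SE 0.26), with an adjusted p of 0.0222 in edgeR's test. The call was lost when WT control replicate 1 (adjusted p 0.0705), WT control replicate 3 (0.092), ahl10-1 control replicate 3 (0.209), WT stress replicate 2 (0.0537) or ahl10-1 stress replicate 2 (0.0567) was left out of the edgeR fit. Its log2 fold change lay between -2.13 and -1.90 in those 5 fits. Its partner AT2G05915 had too few reads to be tested, with 2, 0 and 2 reads in WT control and 0 in every ahl10-1 control library.

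**Figure D1:**
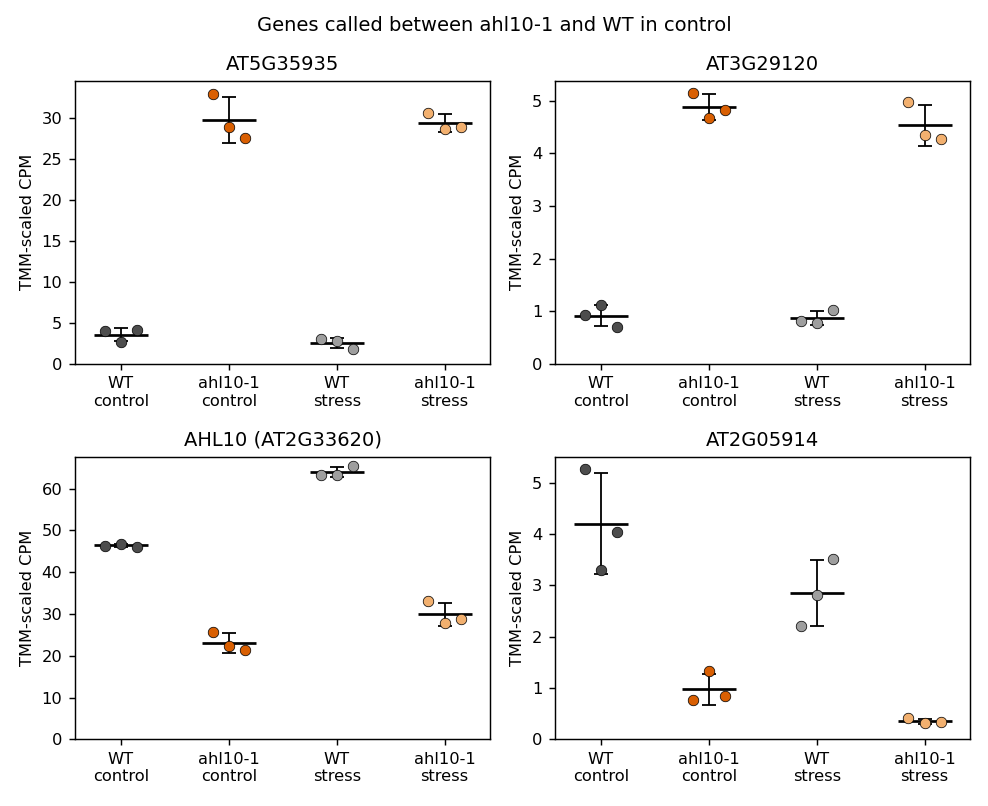
TMM-scaled CPM (vertical axis, from 0) of the 4 genes called in control, in the 4 groups of the series. Points are libraries in replicate order, lines are means and bars are SDs (n = 3). The ahl10-1 libraries lie above WT for both pseudogenes and below WT for AHL10 and AT2G05914, in control and under stress.

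The same 4 genes were also called between ahl10-1 stress and WT stress. These libraries do not enter the control fold change, but both tests share an estimate of the spread from all 12 libraries. The calls under stress are therefore not independent of those in control. Under stress, 6 genes were called, 0.0265% of those tested, and 848, 3.75%, had an unadjusted p under 0.05. AT5G35935 had a log2 fold change of 3.53 under stress, AT3G29120 of 2.38, AHL10 of -1.09 and AT2G05914 of -2.98, with edgeR adjusted p of 1.18e-05, 1.68e-04, 1.28e-04 and 0.00148. The difference between the control and the stress fold change was tested as an interaction, and no gene passed (0 of 22604, 0%). At an unadjusted p under 0.05 the interaction had 320 genes in edgeR, and DESeq2's Wald test called 1 gene. Of the 1208 genes with an unadjusted p under 0.05 in control, 79.8% had the same sign under stress, against 65.0% of all tested genes.

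The gene next to AT5G35935 is AT5G35940, which encodes a mannose-binding lectin-type protein. The pair is divergent, with 682 bases between their annotated starts, and the AT5G35935 window printed above lies in that gap. AT5G35940 was at 8.19, 6.32 and 14.5 CPM in WT control and at 4.44, 4.42 and 2.81 CPM in ahl10-1 control, opposite in sign to AT5G35935. It was not called (log2 fold change -1.31, SE 0.34, unadjusted p 0.00235, adjusted p 0.854 in edgeR's test). Under stress its value was -1.2. AT3G29130, 404 bases beyond the end of AT3G29120 and on the opposite strand, was at 12.1 ± 0.472 CPM in WT and 10.3 ± 0.156 CPM in ahl10-1 (SD, n = 3), a log2 fold change of -0.23 with an unadjusted edgeR p of 0.0135. AT2G05910, beside AT2G05914, had a log2 fold change of -0.26 and an unadjusted edgeR p of 0.138.

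Of the 20 genes nearest to AHL10 in the annotation, 10 on each side, 13 were tested and none was called. Among the 13, 6 had a positive and 7 a negative log2 fold change, and the median was -0.01. GALS1 (AT2G33570), which encodes a synthase of pectic galactan, had an unadjusted p under 0.05. It was at 33.0 ± 2.49 CPM in WT and 39.4 ± 2.99 CPM in ahl10-1 (SD, n = 3), or 0.25 on the log2 scale (SE 0.09, unadjusted edgeR p 0.0125). SWI3B (AT2G33610), a subunit of a chromatin remodelling complex and the next gene upstream, had 0.13.

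Next in the order of p came genes that did not pass the threshold, and the values of the first 8 in each direction are given where the group with more reads averaged 5 CPM or more and the control libraries did not overlap. The non-coding RNA AT1G67105 (chr1:25057479-25058264, plus strand) was at 20.1, 19.1 and 23.7 CPM in WT control and at 3.47, 2.53 and 2.1 CPM in ahl10-1 control. All 3 WT libraries lay far above all 3 mutant libraries. Its log2 fold change was -2.95 (SE 0.38), larger in size than that of AHL10, with an adjusted p of 0.0627 in edgeR's test. Its adjusted p was under the threshold when WT stress replicate 1 (0.0256) or 3 (1.05e-04) was left out, and on the 6 control libraries alone (0.00758). The same held for DESeq2's Wald test (7.4e-17), limma on log2(RPKM + 1) and on log2(RPKM + 0.1), and edgeR without robust estimation. These are 7 of 25 alternatives. AT1G67105 is also on the authors' list for this comparison, with an adjusted p of 6.72e-46 in their deposited DESeq2 table. Under stress it was called, at -3.70, with WT libraries spread from 26.6 to 85.4 CPM.

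The other 7 lower genes were protein-coding. AT2G36690, of the 2-oxoglutarate and iron dependent oxygenases, was at 13.8, 14.1 and 9.45 CPM in WT control and at 6.28, 6.50 and 6.84 CPM in ahl10-1 control (log2 fold change -0.93, SE 0.19, edgeR adjusted p 0.652). AT5G18470, of the curculin-like lectins, had a log2 fold change of -0.77, and AT5G35940 is described above. The remaining members were small in size and tight in spread. AT1G52200, of the PLAC8 family, was at 29.8, 29.9 and 32.6 CPM in WT control and at 24.4, 23.6 and 22.7 CPM in ahl10-1 control, which gave -0.39 on the log2 scale. POK1, a kinesin that guides the plane of cell division, was at -0.30, MEE23, of the berberine bridge enzyme family, at -0.38, and E2F3, a cell cycle transcription factor, at -0.32. All 7 had an edgeR adjusted p of at least 0.577.

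On the higher side, the first was CYP71B19, a cytochrome P450, at 8.88, 9.99 and 9.0 CPM in WT control and 12.1, 13.6 and 14.1 CPM in ahl10-1 control (log2 fold change 0.51, SE 0.09, edgeR adjusted p 0.226). Under stress its value was nearly the same, 0.50. The non-coding RNA AT5G38005 was at 2.59, 2.12 and 2.69 CPM in WT control and at 5.76, 6.82 and 3.74 CPM in ahl10-1 control, which gave 1.14 on the log2 scale in control and 1.19 under stress. ALPHA DOX2, an alpha-dioxygenase that oxidizes fatty acids, had 0.28 in control and 0.35 under stress. ATBETAFRUCT4, a vacuolar acid invertase that splits sucrose, had 0.39 and 0.37. AT5G24155, of the FAD/NAD(P)-binding oxidoreductases, had 0.61 and 0.42. The remaining 3 were AT5G50520 and the SAUR genes SAUR29 and AT4G38860. Leaving aside AT5G50520, whose counts are uncertain, 14 of the other 15 genes had the same sign under stress, against 65.0% of all tested genes. Of them, 9 had an unadjusted edgeR p under 0.05 there, against 3.75% of all tested genes. The control and stress tests share an estimate of the spread, so these p are not independent of the choice by control p.

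AT5G50520, a transporter of the major facilitator superfamily, is a case where the counts themselves are uncertain. Its locus is identical over 2124 bases to that of AT5G50630, and 99.9% of its control reads were multi-mapped. In each WT control library both loci had the same number of reads, 678, 696 and 658. In the ahl10-1 control libraries AT5G50520 had 1713, 1361 and 1298 reads and AT5G50630 had 0. Summed over both copies, the level was 21.6 ± 1.26 CPM in WT and 23.8 ± 1.88 CPM in ahl10-1 (SD, n = 3). The sums overlapped, at 20.7 to 23.0 CPM in WT control and 21.8 to 25.5 CPM in ahl10-1 control. In ahl10-1 stress replicate 3 both loci had 624 reads. The log2 fold change of 1.14 for AT5G50520 alone rests on how reads were shared between identical copies.

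**Figure D2:**
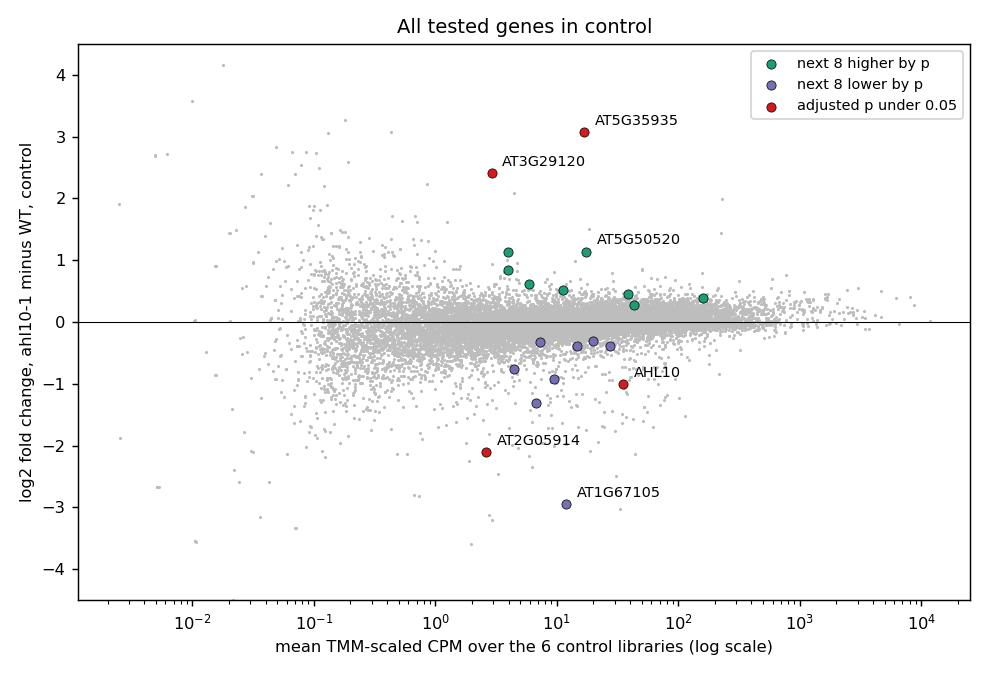
Log2 fold change of ahl10-1 against WT in control (vertical axis) against mean TMM-scaled CPM (horizontal axis, log scale) for the tested genes. Red points passed an adjusted p of 0.05 and green and violet points are the next 8 higher and 8 lower genes by p. The axis ends at 4.5 on both sides, with 7 genes outside, and 1 gene without reads in control is not drawn.

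**Figure D3:**
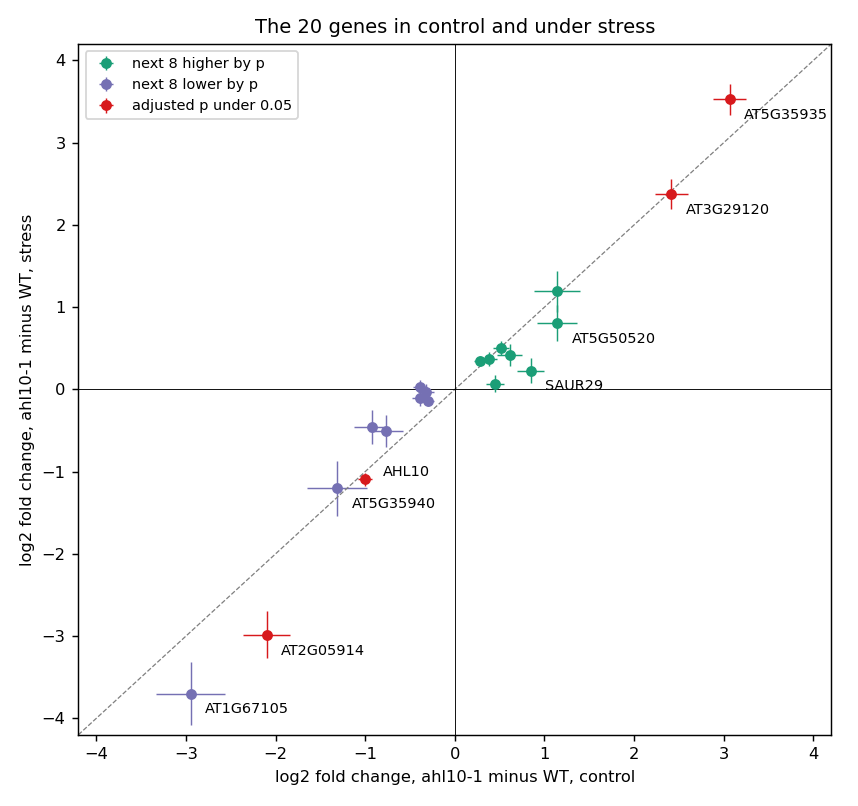
Log2 fold change of ahl10-1 against WT in control (horizontal axis) and under stress (vertical axis) for the 4 called genes and the next 16, with SEs as bars. The dashed line marks equal values. AT2G05914 (-2.1 in control, -2.98 under stress) and SAUR29 (0.85 and 0.23) lie below it.

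The authors' deposited table for this comparison holds 18 genes with an adjusted p under 0.05, 10 higher and 8 lower in ahl10-1. Their fold changes there are smaller than those of the edgeR fit (AT5G35935 at 2.00 and AHL10 at -0.86 in the authors' deposited table). All 18 had the same sign and an unadjusted p under 0.05 in the edgeR fit, 4 of them were called there, and both use the same libraries. DESeq2's Wald test on all 12 libraries called 16 of the 18. Of the 18, 12 also had an adjusted p under 0.05 in the authors' deposited table for stress. By annotation, 5 of the 18 were pseudogenes, 4 were non-coding RNAs and 9 were protein-coding. Among the 22604 genes tested with edgeR, 431 were pseudogenes, 332 non-coding RNAs and 21486 protein-coding. Some of them were at or near 0 reads in 1 genotype.

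The pseudogene AT5G44925 had 0 reads in every WT control library and 20 to 38 reads in the ahl10-1 control libraries, at least 10.7-fold higher than a floor of 3 reads per library. It also had 0 CPM in every WT stress library and 0.351, 0.379 and 0.259 CPM in the ahl10-1 stress libraries. The pseudogene AT3G28915 was the reverse, with 22 to 49 reads in WT control and 0 in ahl10-1, at least 11.9-fold lower against the same floor. AT1G63070, of the pentatricopeptide repeat family that acts on organelle RNA, was at 0.366, 0.794 and 0.609 CPM in WT control and at 0.0298, 0 and 0 CPM in ahl10-1 control. In ahl10-1 stress both AT3G28915 and AT1G63070 were at 0 in all 3 libraries. None of these 3 passed edgeR's threshold in control (adjusted p 0.0542, 0.176 and 0.125).

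Among the rest of the authors' list, SADHU3-2, of the Sadhu retroposon family, was at 3.46, 2.35 and 3.47 CPM in WT control and at 1.44, 1.23 and 0.948 CPM in ahl10-1 control, with -1.35 on the log2 scale and -1.89 under stress. The non-coding RNA AT4G04223 was at 1.77, 2.23 and 1.02 CPM in WT control and at 6.46, 11.5 and 3.53 CPM in ahl10-1 control, with 2.1 on the log2 scale and 2.55 under stress. These 2 did not overlap between genotypes at either water potential. CYP82C2, a cytochrome P450 of indole metabolism, was at 0.656, 0.612 and 0.560 CPM in WT control and at 1.86, 1.65 and 2.1 CPM in ahl10-1 control, but at most 0.15 CPM in any stress library.

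By annotation class, 431 pseudogenes were tested and 2 were called, both higher, while 29 (6.73%) had an unadjusted edgeR p under 0.05, 12 higher and 17 lower. Of 332 non-coding RNAs, 1 was called and 20 (6.02%) had an unadjusted p under 0.05, 10 in each direction. Of 21486 protein-coding genes, 1 was called, AHL10, and 1146 (5.33%) had an unadjusted p under 0.05. These shares are close to the 5.34% of all tested genes. Without ahl10-1 control replicate 1 they were 11.4% for pseudogenes, 11.4% for non-coding RNAs and 14.8% for protein-coding genes, against 14.4% of all genes.

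SAUR genes encode short proteins that promote cell expansion and are among the fastest genes to respond to auxin. The family was looked at after its members were seen among the smallest p, so its counts are a description. Of 79 annotated members, 68 were tested and none was called. An unadjusted edgeR p under 0.05 was found in 15 members with higher and 4 with lower levels in ahl10-1, against 2.52% higher and 2.83% lower among all tested genes, and the median log2 fold change was 0.15. The 15 higher members had log2 fold changes from 0.41 to 1.11. SAUR29 (AT3G03820) was at 2.67, 2.90 and 2.93 CPM in WT control and at 5.96, 4.78 and 4.52 CPM in ahl10-1 control (log2 fold change 0.85, SE 0.15, edgeR adjusted p 0.288). AT4G38860 was at 28.3, 34.5 and 34.6 CPM in WT control and at 40.1, 50.3 and 42.7 CPM in ahl10-1 control (0.45, SE 0.10). A lack of overlap between the control libraries was a condition for naming both genes, and neither passed the threshold.

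The 15 members lay mostly in 3 runs of neighbouring loci. In the run on chromosome 1 (loci starting AT1G29), which holds SAUR63, SAUR68 and AT1G29500, all 8 tested members were positive, 6 with an unadjusted p under 0.05, and the median log2 fold change was 0.54. In the run on chromosome 3 (loci starting AT3G038) with SAUR26 to SAUR29, all 4 were, with a median of 0.59. In the run on chromosome 5 (loci starting AT5G180) with SAUR19 to SAUR24, all 6 were positive, 3 with an unadjusted p under 0.05, and the median was 0.43. Members of a run resemble each other in sequence, and 2 of the 15 had over 10% multi-mapped reads, at most 16.5%. Under stress the medians of the 3 runs were 0.17, 0.06 and 0.32, and none of the 15 members had a higher level at an unadjusted p under 0.05. In the interaction test 5 of the 15 had an unadjusted p under 0.05, and the adjusted p of each was 1.00. With ahl10-1 control replicate 1 left out, the medians of the runs were 0.49, 0.50 and 0.28 in control, and the family median was 0.05. In that fit 14 members were higher at an unadjusted p under 0.05, against 8.58% of all genes. They shared 10 genes with the 15, as SAUR19, SAUR21, SAUR24, SAUR27 and SAUR28 were no longer among them and AT1G20470, AT1G72430, AT2G28085 and AT4G22620 were.

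Of 29 genes of the AHL family, 28 were tested in control, and AHL10 alone was called. Among the other 27, 22 had a negative and 5 a positive log2 fold change, with a median of -0.21, against a median of -0.00 and 48.3% positive over all tested genes. AHL6 (AT5G62260) was at 9.18 ± 1.43 CPM in WT and 7.32 ± 0.722 CPM in ahl10-1 (SD, n = 3), a log2 fold change of -0.32 (unadjusted edgeR p 0.0227). AHL22, which restrains hypocotyl growth, was at 20.3 ± 4.16 CPM in WT and 15.4 ± 0.791 CPM in ahl10-1 (SD, n = 3), a log2 fold change of -0.40 (unadjusted edgeR p 0.0276). No member had a higher level in ahl10-1 at an unadjusted p under 0.05. AHL9 had the highest value, 0.11, and AHL13 was at 29.4 CPM in both genotypes. Under stress 4 of the 27 were positive and the median was -0.11. Without ahl10-1 control replicate 1, the 28 tested members including AHL10 had a median of -0.18, and 6 were lower at an unadjusted p under 0.05, against 5.86% of all genes.

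Among the auxin genes, 16 of 28 tested members were positive, 3 of them with an unadjusted edgeR p under 0.05 (SAUR19, SAUR24 and SAUR21), and the median was 0.05. The 9 Aux/IAA repressor genes of that list ran from -0.08 (IAA1) to 0.15 (IAA7). Without ahl10-1 control replicate 1 the sign of the auxin median changed to -0.05, with 12 of 28 positive. None was then higher and 3 were lower at an unadjusted p under 0.05, against 8.58% and 5.86% of all genes. The growth and cell wall genes had a median of -0.01 over 20 members, and of -0.07 without that library. XTH18, an enzyme that remodels xyloglucan, was at -0.91 (SE 0.33, unadjusted edgeR p 0.0201), with 10.3 to 28.5 CPM in WT and 8.65 to 11.5 CPM in ahl10-1, and XTH4 was at 0.24 (unadjusted edgeR p 0.0355). With all control libraries, 10 of the 20 members were positive and 10 negative, and the lowest value lay below that of XTH18. Only XTH18 and XTH4 had an unadjusted p under 0.05. Among the positive members without such a p were the expansins EXPA1, EXPA5, EXPA8 and EXPA10, at 0.20, 0.32, 0.18 and 0.24.

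Of 27 genes linked to abscisic acid and low water potential, 11 were positive and 16 negative, and the median was -0.04. An unadjusted edgeR p under 0.05 was found in CYP707A3, which breaks down abscisic acid (-2.08), NCED3, which makes it (-0.97), HAI2, a phosphatase of its signalling (-0.72), and RD20, a caleosin (0.41). CYP707A3 rested on 1 library, with 71.7, 4.91 and 14.5 CPM in WT control and 7.77, 3.3 and 10.5 CPM in ahl10-1 control. HAI2 was low, at 0.686, 0.596 and 0.528 CPM in WT control and at 0.536, 0.304 and 0.242 CPM in ahl10-1 control. All 4 genes overlapped between the genotypes. P5CS1, the enzyme of proline synthesis, was at 0.04 and HAI1 at -0.21. The list's median was -0.21 without ahl10-1 control replicate 1, with 8 of 27 positive, and P5CS1 was then at -0.12.

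The jasmonate list had a median of -0.02 over 21 genes. JAZ1, a repressor of the pathway, was the member with an unadjusted edgeR p under 0.05 (-0.52). Its control libraries overlapped between the genotypes. With ahl10-1 control replicate 1 left out, 3 of the 21 instead of 9 were positive, and the median was -0.12. In that fit 3 were lower at an unadjusted p under 0.05, against 5.86% of all genes. JAZ10, another repressor, went from 0.75 to -0.11. The salicylic acid and defence list had 13 of 17 tested members negative, with a median of -0.11, and PAD4 (-0.39) and CBP60G (-0.91) had an unadjusted p under 0.05. CBP60G, a transcription factor that activates salicylic acid synthesis, was at 27.3, 7.35 and 9.54 CPM in WT control, so that WT replicate 1 stood apart, and at 6.68 to 9.28 CPM in ahl10-1 control. PAD4 was at 21.8, 13.0 and 14.6 CPM in WT control, also highest in WT replicate 1. In ahl10-1 control it was at 12.2 to 13.1 CPM. Both genes overlapped between the genotypes. The list's median without ahl10-1 control replicate 1 was -0.17. PR1 had too few reads to be tested.

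The list of DNA methylation and silencing genes had no member with an unadjusted p under 0.05 among 27, and its values were the narrowest, from -0.16 (RDR2) to 0.10 (SUVH9). Of these, 6 were positive and 21 negative, against 48.3% positive over all tested genes. Under stress 4 were lower and none higher at an unadjusted edgeR p under 0.05, against 3.75% of all tested genes in either direction. MET1, which maintains DNA methylation, was at -0.02 and CMT3 at -0.07. The median moved from -0.05 to -0.08 without ahl10-1 control replicate 1. In that fit 3 members were lower at an unadjusted p under 0.05, against 5.86% of all genes. In flowering time, MAF4 was at -0.37 (unadjusted edgeR p 0.0183) and FLC and FT were at -0.27 and -0.01. Leaving out ahl10-1 control replicate 1 left no flowering gene with an unadjusted p under 0.05, and LFY, which specifies floral meristems, went from 0.69 to -0.37. In the circadian clock list, PRR9, a morning repressor, was at 8.92, 7.63 and 12.7 CPM in WT control and at 6.80, 5.71 and 7.31 CPM in ahl10-1 control (log2 fold change -0.56, SE 0.16, unadjusted edgeR p 0.00459), and ELF3 was at 0.16. Under stress PRR9 was higher in ahl10-1 without overlap, at 0.33 (unadjusted edgeR p 0.0602), and the interaction had an unadjusted edgeR p of 0.00201 and an adjusted p of 1.00. Of its control reads, 19.6% were multi-mapped. Without ahl10-1 control replicate 1, 5 of the 11 clock genes had an unadjusted p under 0.05, 1 higher and 4 lower. Over all genes in that fit the share was 14.4%, 8.58% higher and 5.86% lower. Apart from AHL10, no member of any of these lists was called.

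**Figure D4:**
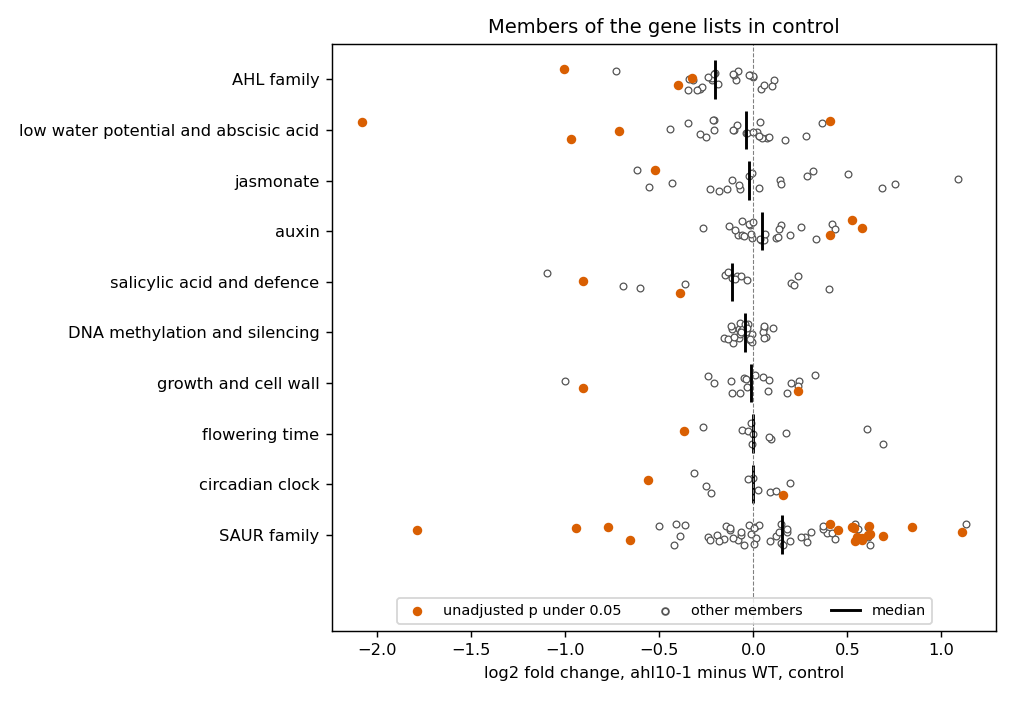
Log2 fold change of ahl10-1 against WT in control (horizontal axis) for the tested members of each list. Filled points have an unadjusted p under 0.05, vertical bars are list medians, and points are jittered vertically. The medians lie between -0.21 for the AHL family and 0.15 for the SAUR family.

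Without ahl10-1 control replicate 1, edgeR called 12 genes, the same 4 and 8 others, and 3291 genes, 14.4%, had an unadjusted p under 0.05. Of the 8, 7 were lower in the remaining ahl10-1 libraries. STM, which maintains the shoot meristem, was at 9.27, 8.19 and 6.01 CPM in WT control, at 15.5 CPM in ahl10-1 control replicate 1, and at 2.37 and 1.92 CPM in replicates 2 and 3. HMT3, a homocysteine methyltransferase, was at 19.98, 18.5 and 19.4 CPM in WT control, at 32.4 CPM in ahl10-1 control replicate 1, and at 9.87 and 9.84 CPM in the others. For each of these 8 genes the WT libraries lay between replicate 1 and the other mutant libraries, an order that choosing genes called only without replicate 1 favours. BAT5, a plastid carrier of aliphatic glucosinolate synthesis, PRXCA and AT5G58390, both peroxidases, AT2G37900 and UMAMIT32, both of transporter families, had the same order. ALN, the allantoinase of purine breakdown, had the opposite one, at 49.0 CPM in replicate 1 and 81.0 and 78.6 CPM in the others. With all 3 mutant libraries the log2 fold changes of the 8 genes ran from -0.24 (STM) to 0.23 (ALN). Under stress the genotypes did not overlap for any of the 8, and each lay in the direction of ahl10-1 control replicates 2 and 3. The share of all tested genes without overlap under stress was not counted. Unadjusted edgeR p under stress ran from 0.0767 (STM) to 0.565 (BAT5) for the 8 genes. The ahl10-1 stress mean was 39.3% of the WT stress mean for STM, 40.6% for UMAMIT32, 74.4% for HMT3 and 107.8% for ALN, and none of the 8 was called there.

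**Figure D5:**
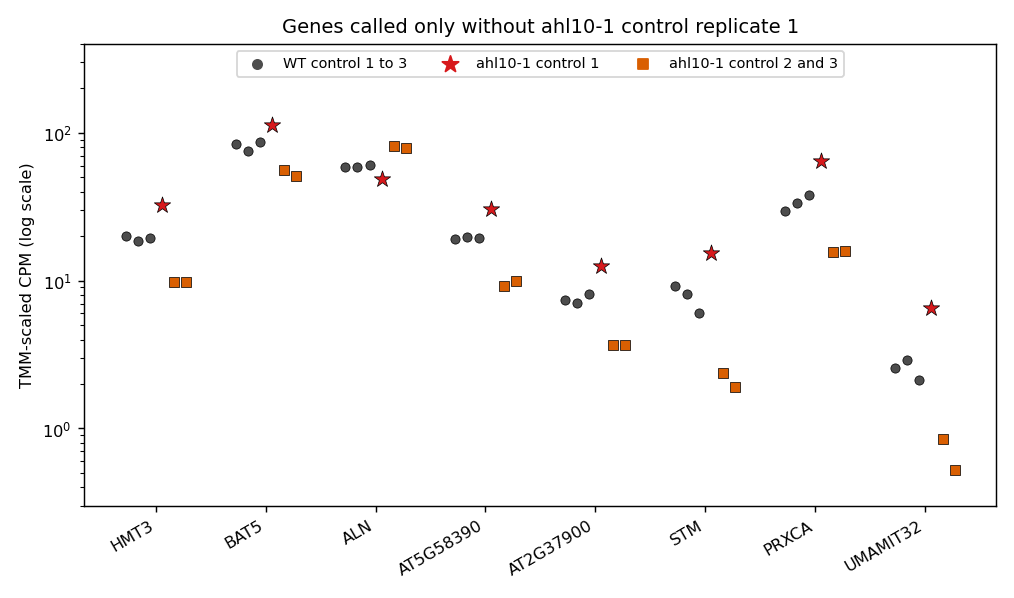
TMM-scaled CPM (vertical axis, log scale) in the 6 control libraries for the 8 genes called in the fit without ahl10-1 control replicate 1 and not with it. Each symbol is 1 library. The star, ahl10-1 control replicate 1, lies on the far side of WT from the other ahl10-1 libraries for every gene.

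Among the markers, IRT1, the iron transporter of the root epidermis, was at 16.4, 52.3 and 86.6 CPM in WT control and at 15.2, 18.6 and 16.5 CPM in ahl10-1 control (log2 fold change -1.63, unadjusted edgeR p 0.00599). WT replicate 1 was within the mutant range. The other 10 root markers had no unadjusted p under 0.05, and the summed RPKM of all 11 was 71.6 to 157.8 in WT and 70.3 to 88.4 in ahl10-1. Seed storage markers were near 0, with a summed RPKM of at most 1.12, and flower markers summed to 6.85 to 10.0.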

How the data were processed

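Oligo-dT selected, strand-specific libraries of whole seedlings were sequenced, per the labels' protocols. The submitters' processing notes name TAIR10, CASAVA, bcl2fastq 1.8.4, Bowtie2 and DESeq2; the counter and its strand setting are not given in the sources used here. The authors deposited, per library, expected counts per gene with multi-mapped reads shared out, a fraction of multi-mapped reads, and RPKM values, which were used for marker sums and as an alternative. The authors' deposited comparison tables give log2 fold changes, p-values and a base mean, a score used only as deposited. Counts were rounded to whole numbers.

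All 12 libraries were fitted in 1 model of 4 group means with edgeR 4.0.16 (R 4.3.3), using TMM scaling, robust quasi-likelihood and filterByExpr (minimum count 10, total 15). It left 22604 of 33602 genes, with 8 residual degrees of freedom and a biological coefficient of variation of 0.144. Benjamini-Hochberg adjustment ran over all tested genes of a comparison, a call is an adjusted p under 0.05, and an SE is the log2 fold change over the square root of F. Within groups the control libraries differed by more than counting noise (chi-square per degree of freedom 50.3 to 109.5). A gene at 0 reads may hold up to 3, which covers counting error only. Identifiers of 32835 genes matched the reference annotation of TAIR10.1.

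Named genes were AHL10, called genes, the next 8 in each direction as described, neighbours of AHL10, up to 3 members per list by p, and the authors' 18 genes. Others were named after their values were seen. The members and lists were chosen with earlier results of these data known. The fit was tested on simulated data. Alternatives were other scalings and filters, DESeq2 1.42.0, limma 3.58.1 on log2(RPKM + 1) and log2(RPKM + 0.1), the compared groups alone, a replicate block, no multi-mapped reads, no robust estimation, and each library left out. Counts of SAUR genes and annotation classes under these were added after the data were seen.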

Additional observations from a re-analysis of the deposited data

How the results depend on the processing

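In control, the 4 calls became 26 with DESeq2's Wald test, 2 of them chloroplast genes, 7 on the compared groups alone, and 3 to 12 when 1 library was left out, with the highest count without ahl10-1 control replicate 1. Under stress, 6 calls became 33 with DESeq2 and 4 to 8 when 1 library was left out, and the interaction's 0 became 1 with DESeq2. The other scalings, filters and tests kept these counts within 1.5 times. With a replicate block the control count was 3 on all libraries and 0 on the compared groups alone, where 638 genes had an unadjusted p under 0.05 and AHL10 was at -1.01 with an adjusted p of 0.326 in edgeR. The replicate numbers were not taken as pairs, because deviations of same-numbered control libraries correlated weakly, at 0.15, 0.17 and -0.10. ahl10-1 control replicates 1 and 2 correlated best with the WT control library of the same number, and replicate 3 with WT replicate 1 (0.07). Under stress same-numbered libraries correlated at 0.06, 0.05 and 0.11, so a pairing by number is not excluded. AHL10 ran from -1.09 to -0.94 over 25 alternatives, and the pseudogenes AT5G35935 and AT3G29120 kept their calls in 24 of 25, all but the block on the compared groups alone. AT2G05914 lost its call in 8 of 25. None of the 28 genes that were called, next by p or on the authors' list changed sign. Their control libraries did not overlap between the genotypes, so leaving 1 library out could hardly reverse a sign. Without ahl10-1 control replicate 1, 36 of 214 tested list and marker genes changed sign, as did UMAMIT32 (0.07 to -1.88). The share of sign changes over all tested genes was not counted. The cause of these changes was not tested. Genes under 1 CPM rest on few reads.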
